A study of Mus musculus with 12 samples.

Results

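The genes for the protein subunits of the cytosolic ribosome were followed in ventricular heart tissue of C57BL/6 mice kept in low oxygen or in room air. They were picked by name alone, as symbols that start with Rpl or Rps and go on with digits and at most one of the letters a, l or x, with Rplp0, Rplp1, Rplp2 and Rpsa added. This rule found 82 of the 39210 genes in the table, of which 50 belong to the large and 32 to the small subunit. Among them are 6 paralogs, second gene copies named after the gene of a usual subunit, namely Rpl3l, Rpl6l, Rpl10l, Rpl39l, Rps4l and Rps27l. In the mouse annotation searched for copies below, Rpl6l and Rps4l had no protein-coding sequence.

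The 12 libraries form 4 groups of 3, since each sex was kept under both oxygen conditions. Normoxic mice breathed 20.9% oxygen for 4 weeks. For hypoxic mice the chamber lost 1% of oxygen each day during 14 days, and the final 7% was then held for 2 weeks. All mice share the strain, no transgene or drug is named, and neither the age nor the side of the ventricle is given in the sources used here. Nothing in the labels ties each library to an animal of its own. The p-values therefore cover the variation among these libraries alone, and it may be technical.

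A cytosolic ribosome joins a small subunit, which reads the messenger RNA, to a large subunit, which forms the peptide bond. Each subunit contains many small basic proteins in single copies, made from abundant short messenger RNAs that commonly begin with a run of pyrimidines (the TOP motif) through which mTOR signalling controls their translation. Heart and skeletal muscle are unusual in that they also express Rpl3l, a paralog that takes the place of Rpl3, a large-subunit protein near the peptidyl transferase centre.

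The libraries held between 14915800 and 19397900 estimated counts. Ventricular cardiomyocyte markers were present throughout, with a summed level over 9 genes of 41643 to 62867 CPM (counts scaled to a common library size, here by TMM, which aligns the bulk of genes between libraries). Mitochondrially encoded genes took 28.3% ± 0.845 (SD, n = 3) of counts in normoxia and 20.3% ± 3.93 in hypoxia in males, against 25.4% ± 0.969 and 22.2% ± 0.782 in females. Atrial markers were highest in male hypoxia libraries 2 and 3 and in female hypoxia library 3, where the 6 genes summed to 1679, 933 and 1051 CPM against at most 253 in the normoxia libraries. Female normoxia library 3 stood apart for the ribosomal protein genes themselves, as described below.

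The levels per length are set out first. On the TPM scale, which divides by transcript length, 18 members had a mean over 500, 46 lay between 100 and 500, and 1 lay between 50 and 100. Below them, 14 members lay between 0.05 and 50 and 3 were listed at 0 in every library. The highest mean TPM belonged to Rps29, a zinc-binding protein of the small subunit, at 1170 with a range over libraries of 1033 to 1354. Rpl41, the shortest ribosomal protein, followed with a mean of 1118 TPM and a range of 878 to 1645. Rplp1, one of the acidic proteins of the stalk that recruits elongation factors, reached 1041 TPM on average, Rpl36 876 and Rpl28 810. The ranges of these neighbours overlapped, so their order does not exceed the spread between libraries.

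**Figure D1:**
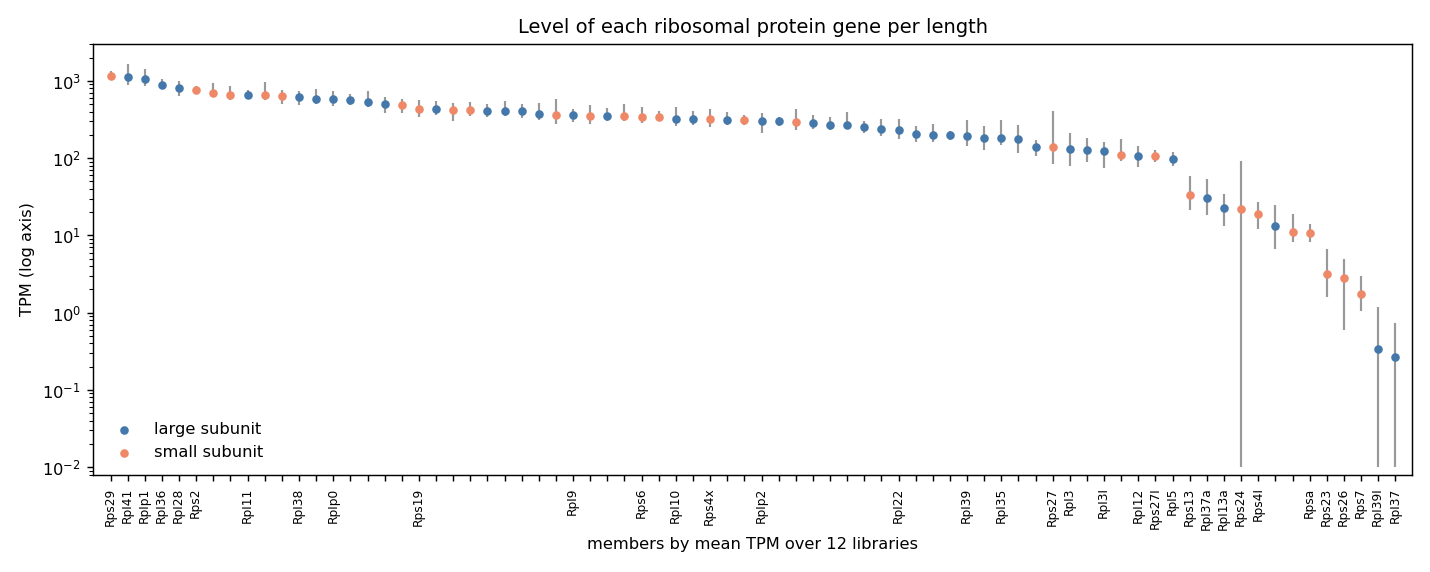
Mean TPM of members over the 12 libraries (points, log axis; genes described in the text are labelled) with lines from the lowest to the highest library; lines that reach the bottom of the axis end at a value of 0. Most members lie above 100 TPM, a break follows Rpl5, and the 3 members listed at 0 everywhere (Rps12, Rpl6l, Rpl10l) are not drawn.

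A step separated Rpl5, at a mean of 95.9 TPM, from Rps13, at 33.1 TPM, and their ranges over libraries did not meet. From Rps13 downward stood 11 tested genes that are not paralogs, among them Rpl37a at 30.7 TPM, Rpl13a at 22.5 TPM, Rps23 at 3.13 TPM and Rps26 at 2.78 TPM. Rpl37 at 0.263 TPM and Rps12 at 0 lay lower still. Since every ribosome contains these proteins, the table was searched for rows with nearly the same sequence. Any other annotated transcript that matched at least 50% of a member's coding sequence at 95% identity or more was taken as a copy. In this way 70 members had at least 1 copy, 417 copies in all, and 13 members held under 90% of their family's estimated counts on their own row. Of the low genes named above, Rps23 held 43.1% and Rpl37 34.2% on their own rows. Rps13 held 99.3%, Rpl37a 93.7%, Rpl13a 99.9% and Rps26 99.7%, so copies found in this way hold few of their counts. Why these rows are low was not tested.

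Rps7, a small-subunit protein, is the clearest case. Its own row held between 17.3 and 54.9 estimated counts per library, 2.68% of the family's mean, while the row Gm6472, 99.5% identical over the whole coding sequence, took most of the rest and brought the sum to between 940 and 1603. Rpl5, which carries 5S ribosomal RNA into the large subunit, held 28.9% on its own row, with Gm15500 as the main copy. Rpl35 held 43.3% on its own row beside Gm2000, and Rpl12 held 59.6% beside Gm10275. For Rps12 the own row was at 0 and 14 copies together gave only 1.04 to 13.8 counts. The values of all 13 genes are therefore levels of a row and not of the gene.

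**Figure D2:**
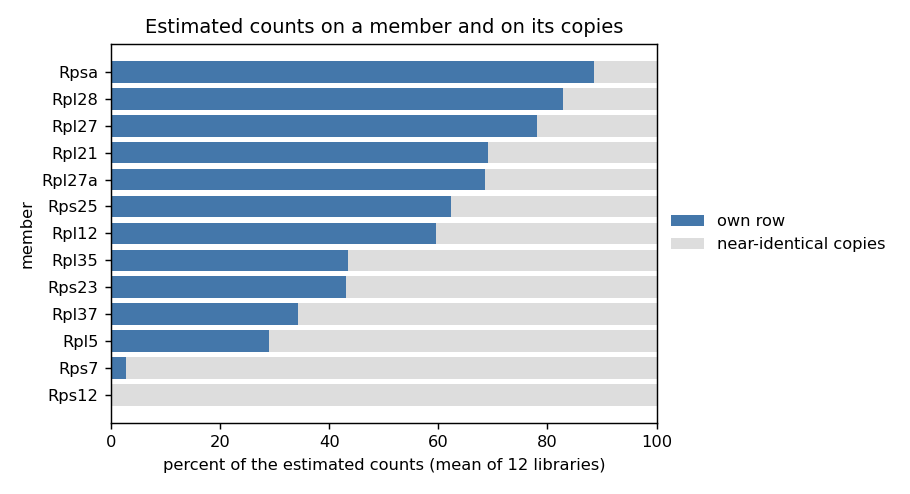
Share of a member's estimated counts on its own row (blue) and on near-identical rows (grey), mean of 12 libraries, for the 13 members with under 90% on their own row. Rps7 keeps 2.68% and Rpl5 28.9%, whereas Rpsa keeps 88.6%.

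Rps24, another small-subunit protein, was uneven within each of the groups. Its estimated counts were 0 in male normoxia libraries 1 and 2, male hypoxia libraries 1 and 2 and female normoxia library 3. They were 20.6 in male normoxia library 3, 232 in male hypoxia library 3, 245 and 284 in female normoxia libraries 1 and 2, and 39.6, 224 and 529 in the hypoxic females. Adding its copies changed the range only to between 1 and 531 counts. Its averaged log2 fold change of 1.78 had an SE of 1.32 and did not pass (edgeR adjusted p = 0.337).

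Low counts removed 5 members from testing. Rpl10l, Rpl6l and Rps12 had 0 counts in every library, Rpl37 had at most 10.1 and Rpl39l, the paralog of Rpl39, at most 10. The remaining 77 members entered the test across all 13960 genes, edgeR's quasi-likelihood test with Benjamini-Hochberg adjustment and a threshold of 0.05. The averaged contrast gives both sexes the same weight.

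On TMM-scaled counts most ribosomal protein genes differed little between hypoxia and normoxia. In the averaged contrast 1 member rose, Rpl3, and 6 fell, among them Rpl3l, Rps2, Rpl36, Rpl9 and Rps29, though on unscaled deposited TPM only Rpl3l of these 6 was called lower and Rpl9, Rpl36 and Rps29 had values above 0. Of all genes tested, 15% were called higher and 12.9% lower, 27.9% in all, against 1 and 6 of 77 members. The log2 fold change lay within 0.25 of 0 for 68 of the 77 members. At an unadjusted p under 0.05 there were 12 members, against 40.7% of all genes.

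**Figure D3:**
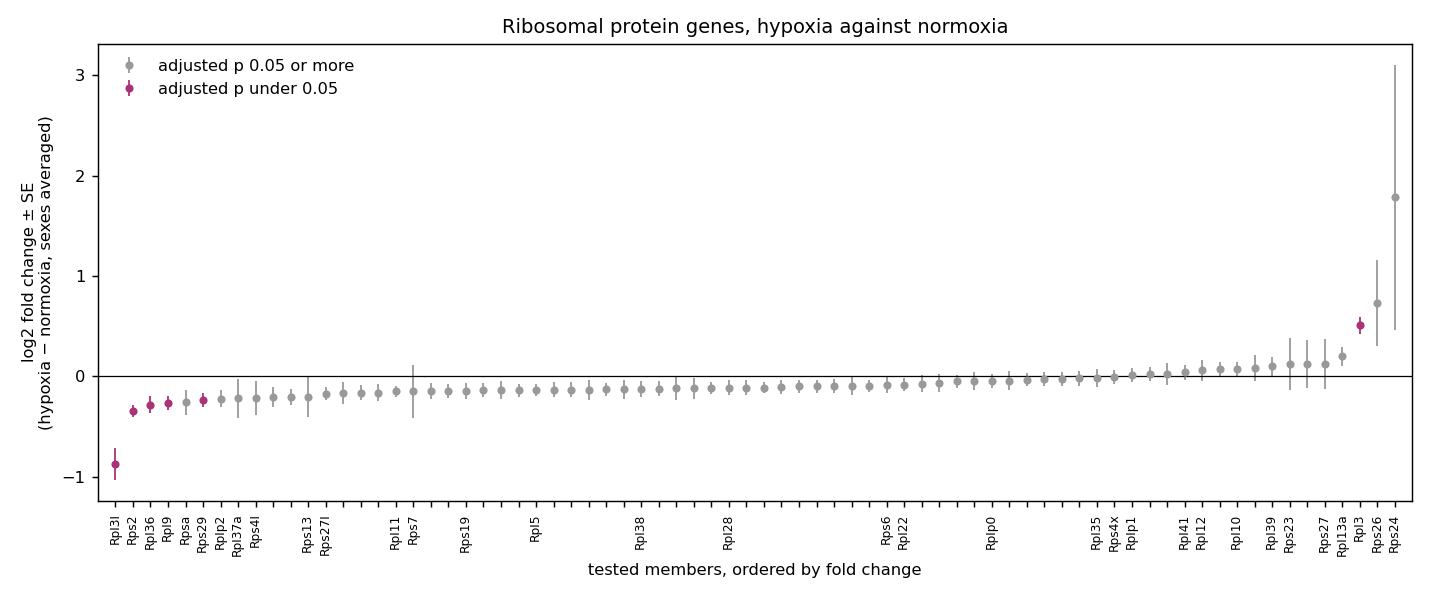
Log2 fold change of hypoxia over normoxia, averaged over the sexes, with its SE, for tested members on the TMM scale, with the genes described in the text labelled. Coloured points passed an adjusted p of 0.05, and among them Rpl3l is lowest at -0.87 and Rpl3 highest at 0.51. The highest point of all is Rps24 at 1.78, which did not pass, and Rps26 and Rps24 have the widest errors.

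The direction of the family as a whole depended on the scale. On TMM-scaled counts the median log2 fold change of the members was -0.11, with 16 of 77 above 0 and a median over all genes of -0.01, whereas on the deposited TPM without further scaling the median of the members was 0.20 and that of all genes 0.19. On that TPM scale 16 of 77 members were called higher and 1 lower, where 31.5% of all genes were called higher and 2.03% lower. Relative to the median of all genes, the members stood at -0.10 on TMM-scaled counts and at 0.00 on TPM. TMM factors ran from 0.90 to 0.97 in normoxia and from 0.98 to 1.18 in hypoxia.

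By subunit, and leaving out the paralogs, the 29 tested small-subunit genes had a median of -0.11 with 0 risen and 3 fallen. The 45 large-subunit genes had a median of -0.11 with 1 risen and 2 fallen. The members together took 1.5% ± 0.0379 (SD, n = 3) of all estimated counts in normoxic males and 1.72% ± 0.137 in hypoxic males. They took 1.59% ± 0.111 in normoxic females and 1.6% ± 0.132 in hypoxic females. With mitochondrially encoded genes left out of the total, the 4 means were 2.10% ± 0.0494, 2.15% ± 0.0848, 2.14% ± 0.131 and 2.06% ± 0.168, which differ by less than the largest spread between libraries.

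Rpl3 was the member that rose. Its TMM-scaled CPM was 160, 162 and 170 in normoxic males and 230, 264 and 296 in hypoxic males. In females it was 205, 194 and 174 in normoxia and 213, 242 and 266 in hypoxia. All 6 hypoxia libraries lay above all 6 normoxia libraries. The averaged log2 fold change was 0.51 (SE 0.084, edgeR adjusted p = 0.0019), a 1.42-fold difference. It passed in males, with a log2 fold change of 0.68 (edgeR adjusted p = 0.0054), and did not pass in females, with 0.33 (edgeR adjusted p = 0.111).

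Rpl3l, the striated-muscle paralog, moved the other way. Its TMM-scaled CPM was 283, 298 and 322 in normoxic males and 185, 131 and 115 in hypoxic males. In females it was 245, 278 and 313 in normoxia and 239, 159 and 127 in hypoxia. The groups did not overlap within either sex, although female hypoxia library 1 came within 6 CPM of the lowest normoxic female. The averaged log2 fold change was -0.87 (SE 0.16, edgeR adjusted p = 0.0032), or 0.547-fold. Males passed at -1.07 (edgeR adjusted p = 0.0123) and females did not at -0.67 (edgeR adjusted p = 0.0975).

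Since both genes encode the same ribosomal position and have similar effective lengths (1042 bases for Rpl3 and 1084 for Rpl3l), their TPM can be set against each other within a library. Rpl3l over Rpl3 was 1.66, 1.77 and 1.79 in normoxic males, so the paralog was the more abundant messenger. In hypoxic males the ratio was 0.751, 0.466 and 0.381. In normoxic females it was 1.18, 1.38 and 1.76, and in hypoxic females 1.03, 0.656 and 0.472. Every normoxia library was above 1 and every hypoxia library was below 1 except female hypoxia library 1.

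The log2 ratio was lower in hypoxia by a mean difference of -1.41 over both sexes, a 0.376-fold ratio. An exact two-sided permutation test within the sexes gave p = 0.005, the smallest that its 400 arrangements can give. Within males the difference was -1.77 and within females -1.05, each with an exact permutation p of 0.1, the smallest that 3 libraries against 3 allow. Expressed as a share of the pair's TPM, Rpl3l went from 63.5% ± 0.996 (SD, n = 3) in normoxia to 34.1% ± 7.90 in hypoxia in males, and from 58.6% ± 4.81 to 40.8% ± 9.44 in females.

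**Figure D4:**
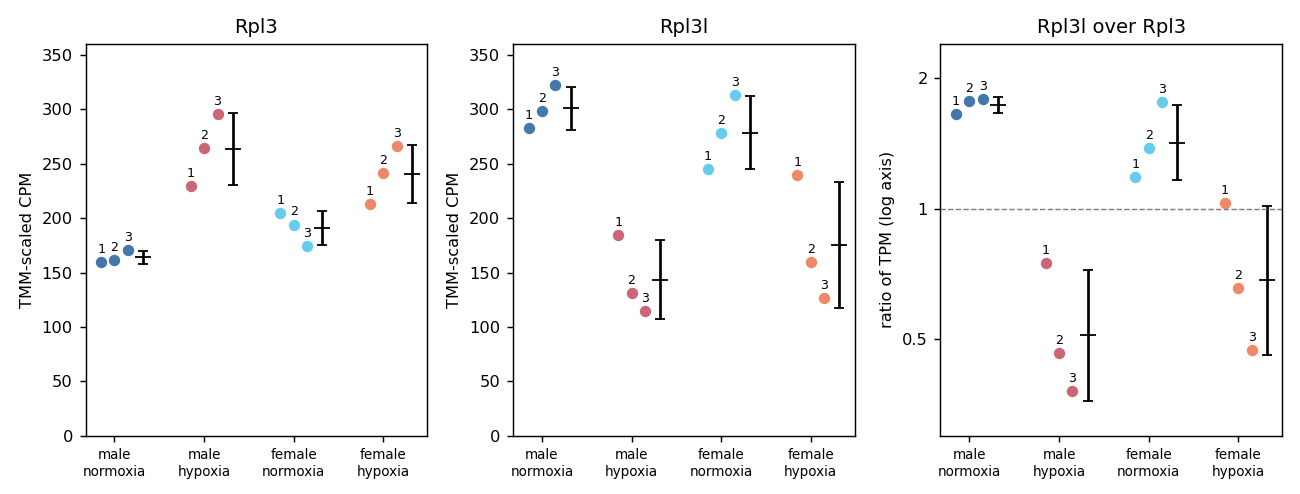
TMM-scaled CPM of Rpl3 and Rpl3l and the ratio of their TPM (log axis) in each library, numbered by replicate, with mean ± SD (of log2 values for the ratio). Rpl3 is higher and Rpl3l lower in hypoxia; all normoxia libraries lie above a ratio of 1 and 5 of 6 hypoxia libraries below it.

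Markers of several cell types were also called in the averaged contrast, where 15% of all genes were called higher and 12.9% lower. Erythroid markers rose in 6 of 6 tested genes, with sums in males of 1431 to 1981 CPM under normoxia and 8848 to 10752 under hypoxia, and in females of 1405 to 1807 and 6057 to 10081. Macrophage markers rose in 3 of 6, with sums of 148 to 191 and 224 to 272 CPM in males and 142 to 214 and 161 to 243 in females. Atrial markers rose in 3 of 4 tested genes and smooth muscle and pericyte markers in 2 of 5, the latter with log2 fold changes from -1.60 to 1.26. Adipocyte markers rose in 1 of 3 tested genes. Their sums in males were 533 to 665 CPM under normoxia and 936 to 1202 under hypoxia, and in females 564 to 997 and 778 to 1023. Of 2 tested skeletal muscle markers 1 fell, and of 2 tested lymphocyte markers 0 passed. In females alone 0 macrophage, fibroblast, atrial or smooth muscle and pericyte markers passed, where 3.97% of all genes were called higher and 2.02% lower.

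Fibroblast markers rose in 4 of 6 genes, with sums in males of 612 to 653 CPM under normoxia and 871 to 1220 under hypoxia, and in females of 586 to 729 and 598 to 970. Endothelial markers rose in 5 of 7, with sums of 712 to 849 and 1050 to 1346 CPM in males and 819 to 978 and 1062 to 1389 in females. Dividing-cell markers rose in 5 of 5, with sums of 9.0 to 15.1 and 40.0 to 59.4 CPM in males and 9.43 to 18.4 and 29.2 to 66 in females. No gene of the lists with sums given here was at 0 throughout, apart from 1 adipocyte marker.

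Of 9 ventricular cardiomyocyte markers, Myl2 and Pln fell, and the sum in males was 54368 to 60988 CPM under normoxia and 41643 to 52993 under hypoxia, and in females 54157 to 62867 and 42958 to 62151. Female hypoxia library 1, the hypoxia library with the most Rpl3l, also had the highest ventricular sum in hypoxia, 62151 CPM, and the lowest fibroblast sum in hypoxia, 598 CPM. The part of these markers in the Rpl3 and Rpl3l results was not tested. In bulk tissue, fewer cardiomyocytes and less Rpl3l RNA per cardiomyocyte cannot be told apart.

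Rpl3 stood at 0.41 and Rpl3l at -0.69 when male hypoxia libraries 2 and 3, those with the most atrial RNA among males, were left out. Rpl3 was then still called and Rpl3l was not. That fit rests on a lone male hypoxia library, assumed to vary like the other groups. Far fewer of all genes were called in it than in the full fit. A call lost there therefore does not set a member apart from other genes.

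Rps2, a small-subunit protein at the entry of the messenger RNA channel, was separate between conditions across both sexes together. Its TMM-scaled CPM was 889, 864 and 858 in normoxic males and 684, 716 and 618 in hypoxic males. In females it was 870, 835 and 857 in normoxia and 714, 687 and 652 in hypoxia. All 6 normoxia libraries lay above all 6 hypoxia libraries, and the averaged log2 fold change was -0.35 (SE 0.062, edgeR adjusted p = 0.0029), 0.787-fold. Males passed at -0.37 (edgeR adjusted p = 0.0179) and females did not at -0.32 (edgeR adjusted p = 0.0554).

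On unscaled TPM the averaged value of Rps2 was -0.04, which is -0.24 relative to all genes. In RefSeq's annotation of GRCm38.p6 the Rps2 and Rpl3l genes lie close together on chromosome 17 with only Ndufb10 between them, and Snhg9, Snora64 and Snora78 lie within the span of Rps2. The setting used for strand is not given in the sources used here, so reads of overlapping genes are uncertain.

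Rpl9, a protein of the large subunit near the base of its P stalk, was 298, 288 and 330 CPM in normoxic males and 259, 237 and 275 in hypoxic males. In females it was 329, 324 and 359 in normoxia and 259, 286 and 285 in hypoxia. The groups were separate in both sexes, with a log2 fold change of -0.27 (SE 0.068, edgeR adjusted p = 0.0146).

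Rpl36 and Rps29 were the shortest of the fallen members, with effective lengths of 133 and 140 bases. In males Rpl36 was 198 to 230 CPM under normoxia and 159 to 177 under hypoxia, and in females 182 to 247 and 168 to 174, a log2 fold change of -0.28 (edgeR adjusted p = 0.0322). Rps29 was 278 to 306, 221 to 257, 263 to 321 and 243 to 253 CPM in the same order, a log2 fold change of -0.24 (edgeR adjusted p = 0.0301). Neither passed when the filter on low counts was left off. Without male hypoxia libraries 2 and 3 neither was called and Rpl9 was also lost, in the fit where far fewer of all genes were called.

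Counting by overlap alone, on TMM-scaled CPM, gave longer lists of lower members than the test did. In both sexes at once, 1 member had hypoxia libraries all above the normoxia libraries of the same sex (Rpl3), where 7.79% of all genes did. In the other direction there were 11 of 77, the 6 that fell and others such as Rpl11, Rpl15, Rpl24 and Rplp2, where 6.92% of all genes did. Within males, 5 members were separate upward and 15 downward, against 21.5% and 19.8% of all genes (41.3% in either direction). Within females, 2 were separate upward and 26 downward, against 13.2% and 12.7% of all genes (25.9% in either direction).

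The 2 sexes gave different counts by the test. In males Rpl3 rose and Rpl3l and Rps2 fell, where 8.47% of all genes were called higher and 7.10% lower. In females 0 members passed, where 3.97% of all genes were called higher and 2.02% lower, 5.99% in all. Without adjustment 6 of 77 members had a p under 0.05 in females by edgeR, where 24.7% of all genes did. DESeq2 called 1 higher (Rpl3) and 4 lower (Rpl11, Rpl3l, Rpl9 and Rps2), where it called 7.5% of all genes higher and 4.63% lower.

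The median member log2 fold change was -0.05 in males, with 31 above 0, and -0.15 in females, with 10 above 0. Without female normoxia library 3 the female median was -0.06, with 22 above 0. On unscaled TPM these medians were 0.36 and 0.06, beside medians of all genes of 0.26 and 0.12. The test of the difference itself, the interaction of sex and oxygen, called 0 members, and of all genes 0% higher and 0.00716% lower. Without adjustment 1 member, Rps27, had a p under 0.05 by edgeR, where 6.79% of all genes did. DESeq2 also called 0, where it called 0.466% of all genes. Between females and males 0 members passed in normoxia, where 0.0430% of all genes were called higher in females and 0.0287% lower (0.0716% in all), and 0 in hypoxia, where 0.0358% were higher and 0.115% lower (0.15% in all). At an unadjusted p under 0.05 there were 1 and 2 members in these sex contrasts, where 7.29% and 9.63% of all genes were. DESeq2 called 0 members in each, where it called 0.415% and 1.32% of all genes.

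Library by library, the 62 members other than paralogs with a mean of at least 1000 counts were compared with their own median over the 12 libraries, on log2 CPM. Female normoxia library 3 had 61 of the 62 above their median, with a median deviation of 0.26, and Rpl3 alone below it. In the other 11 libraries the median deviation ran from -0.09 in female hypoxia library 1 to 0.13 in male normoxia library 3. Male hypoxia library 2 had the widest spread, with an interquartile range of 0.20 against 0.05 to 0.14 elsewhere, from -0.57 for Rpl31 to 0.42 for Rpl35.

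Without female normoxia library 3, 26 of 77 members were above 0 in the averaged contrast and the median was -0.06. The same 6 members fell and Rpl3 rose.

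**Figure D5:**
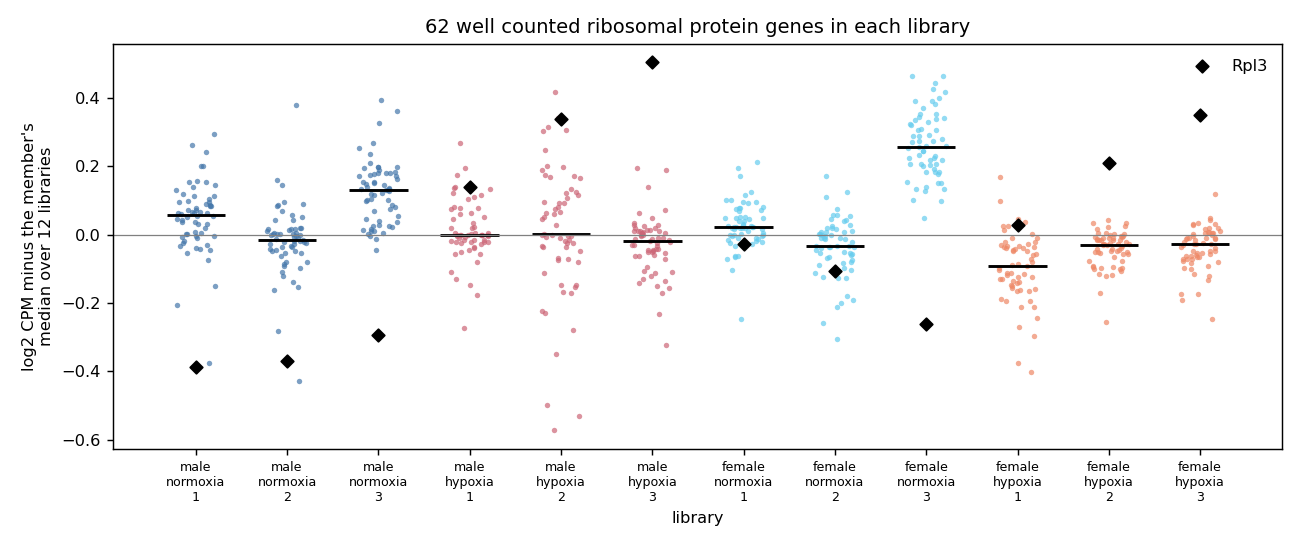
Deviation of 62 well counted members from their own median over the 12 libraries, on log2 CPM, in each library (dots), with the median of the members (line) and Rpl3 (diamond). Female normoxia library 3 is raised as a block at 0.26 while its Rpl3 is low, and male hypoxia library 2 is the most spread out.

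On TMM-scaled counts shorter members tended to have lower fold changes. Across the same 62 members the log2 effective length and the averaged log2 fold change had Pearson's r = 0.36 and Spearman's rho = 0.36, and the log2 mean TPM and the fold change had r = -0.39 and rho = -0.36. These are descriptions across genes that share their libraries, and length enters both measures. All 6 of these members under 200 bases, Rpl28, Rpl36, Rpl38, Rps21, Rps28 and Rps29, had a negative value, with a median of -0.16, against 47 of 56 longer members with a median of -0.10. Rps27, the shortest tested member at 95 bases, lay under the minimum of 1000 counts and had a value of 0.12, which ran from -0.18 to 0.30 as single libraries were left out.

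Several members with known regulatory or structural roles did not pass in edgeR's test, although Rpl11 and Rplp2 were called lower with DESeq2 and with upper quartile factors. Rplp0, the scaffold of the stalk, was at -0.04 (edgeR adjusted p = 0.675) and Rplp1 at 0.01 (0.908), while Rplp2, their acidic partner, was at -0.22 (0.0713). Rpl11, which with Rpl5 binds Mdm2 when ribosome assembly is disturbed, was at -0.15 (edgeR adjusted p = 0.066), with 226 to 248 CPM in normoxic and 218 to 220 in hypoxic males. Rpl5 itself was at -0.13 (edgeR adjusted p = 0.125).

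Rps6, the substrate of S6 kinase, was at -0.09 (edgeR adjusted p = 0.449). Rps19, the gene most often mutated in Diamond-Blackfan anaemia, was at -0.14 (edgeR adjusted p = 0.198). Rpl38, linked to translation of Hox messenger RNAs, was at -0.13 (edgeR adjusted p = 0.245), Rpl22 at -0.08 (0.382), Rpl10 at 0.08 (0.459), Rpl39 at 0.10 (0.449) and Rpsa, the laminin receptor precursor, at -0.26 (0.141).

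The other paralogs showed no change that passed. In males Rps27l was 46.8 to 51.5 CPM under normoxia and 41.5 to 44.7 under hypoxia, and in females 46.3 to 51.4 and 38.4 to 47.8, with a log2 fold change of -0.17 (edgeR adjusted p = 0.0743). Its partner Rps27 was 12.7 to 21.7 CPM in 10 libraries, 48.4 in male hypoxia library 2 and 30.1 in female normoxia library 3. As a share of the pair's TPM, Rps27l therefore ranged from 23.7% in male hypoxia library 2 to 52.8%.

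Rps4l made up 3.29% to 7.39% of the TPM of Rps4l and Rps4x. Its log2 fold change was -0.21 (edgeR adjusted p = 0.376), and that of Rps4x was -0.01 (0.938) with a value of 0.30 on unscaled TPM. Rpl39l did not exceed 0.509% of the Rpl39 pair in any library. Rpl10l, known for its role in male germ cells, was listed at 0 beside 271 to 343 CPM of Rpl10.

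Start sites are shown because the shared pyrimidine start is the feature for which these genes are known. RefSeq promoter entries on GRCm38.p6 existed for 60 of the 82 members, 72 entries in all. The letters CTTTC were searched in the 15 bases on each side of the annotated start. They were found on the gene strand in 23.6% of the member entries and in 4.05% of all 32851 entries, and on the other strand in 2.78% and 3.60%. The letters CTTCC in the same window were found on the gene strand in 18.1% and 6.63%, and on the other strand in 11.1% and 7.31%. Most member entries lack CTTTC, which was found on the gene strand in 17 of 72. Rpl15, separate downward in both sexes, has it, and Rps6, which did not pass, lacks it. A link between these letters and the fold changes was not tested. Examples follow from 5′ to 3′ on the gene strand, with CTTTC in capitals, followed by Rps2, Rpl9 and Rpl3l, which fell and have no CTTTC in this window.
Rpl13a, chr7:45128731-45128760, minus strand: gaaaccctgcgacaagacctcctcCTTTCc
Rpl18, chr7:45718056-45718085, plus strand: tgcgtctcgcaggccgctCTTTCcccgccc
Rpl28, chr7:4792950-4792979, plus strand: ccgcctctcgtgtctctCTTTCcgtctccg
Rpl38, chr11:114668565-114668594, plus strand: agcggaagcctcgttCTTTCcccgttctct
Rps2, chr17:24720048-24720077, plus strand: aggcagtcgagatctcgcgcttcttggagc
Rpl9, chr5:65391417-65391446, minus strand: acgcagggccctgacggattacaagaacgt
Rpl3l, chr17:24727811-24727840, plus strand: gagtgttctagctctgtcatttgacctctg

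In the 250 bases before the start, 3 further motifs were searched on both strands. CCGGAAG, whose reverse complement contains CTTCC, was in 26.4% of member entries and 6.91% of all entries. CAGCTG, a palindrome and one form of the E-box bound by basic helix-loop-helix factors, was in 5.56% and 13.0%. CTA and TAG with any 4 bases between them, the core of MEF2 sites, were in 0% and 3.20%. The sequence before the first annotated start of Rpl3l is shown since this gene moved against Rpl3, with its CAGCTG in capitals; a match is a description of these letters and not a measured site.
Rpl3l, chr17:24727576-24727825, plus strand: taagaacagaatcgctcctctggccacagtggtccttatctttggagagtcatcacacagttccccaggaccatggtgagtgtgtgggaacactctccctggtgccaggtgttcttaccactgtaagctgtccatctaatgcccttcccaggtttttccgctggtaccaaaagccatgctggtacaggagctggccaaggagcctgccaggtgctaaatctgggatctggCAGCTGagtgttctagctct

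Genes that work with the ribosome were counted by list in the averaged contrast, on TMM-scaled counts. Their counts stand beside the 15% of all genes called higher and 12.9% called lower. Of the ribosomal proteins whose names fall outside the pattern, 7 of 8 were tested and 0 passed. Log2 fold changes were -0.01 for Fau, -0.15 for Rps3a1, -0.08 for Rack1, 0.05 for Rpl22l1, -0.07 for Rpl7l1 and -0.12 for Rpl36al, while Rps27rt was at 0 counts. At an unadjusted p under 0.05 there were 0 of these 7 by edgeR, where 40.7% of all genes were, and DESeq2 called 0, where it called 31.7%.

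Of 8 elongation factors 1 rose and 3 fell, with a list median of -0.18 beside -0.01 over all genes. Eef1a1, which brings aminoacyl-tRNA to the ribosome, was 762, 845 and 640 CPM in males under normoxia and 1171, 1308 and 1392 under hypoxia. In females it was 784, 760 and 869 CPM and then 832, 1223 and 1252. Only females overlapped, through female hypoxia library 1, and the log2 fold change was 0.62 (SE 0.11, edgeR adjusted p = 0.0032).

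Eef1a2, the paralog that replaces Eef1a1 in adult muscle and neurons, was at -0.22 (edgeR adjusted p = 0.128), with 0.09 on unscaled TPM. As a share of the TPM of both genes, Eef1a2 went from 43.8% ± 3.5 (SD, n = 3) in normoxia to 29.8% ± 3.58 in hypoxia in males, and from 43.9% ± 2.47 to 33.8% ± 7.53 in females. Eef2k, the kinase that inhibits Eef2, fell by 0.31 on the log2 scale (edgeR adjusted p = 0.0239), and the exchange-factor subunits Eef1b2 (-0.21, adjusted p = 0.0356) and Eef1d (-0.25, adjusted p = 0.0493) fell too.

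Of 21 other genes with TOP messenger RNAs, 2 rose, Eef1a1 and Pabpc1, the cytoplasmic poly(A)-binding protein, at 0.52 (edgeR adjusted p = 0.0081). In that list 3 fell, Hnrnpa1 (-0.27), Eef1b2 and Eef1d. Of 40 initiation factors 0 rose and 4 fell, both shares below those of all genes, namely the helicase Eif4a2 (-0.47, edgeR adjusted p = 0.0053), Eif1ax (-0.23), Eif2s1 (-0.25), the alpha subunit of eIF2, and Eif3i (-0.19). On unscaled TPM these 2 lists had 10 and 14 members called higher and 0 lower, where 31.5% of all genes were higher. The initiation factors had 3 higher and 3 lower without female normoxia library 3, and 0 and 9 with upper quartile factors.

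Among 76 ribosome biogenesis factors 1 rose and 12 fell, where 15% of all genes rose and 12.9% fell, with a list median of -0.12 beside -0.01 over all genes. Without female normoxia library 3 there were 5 higher and 11 lower, with a median of -0.04. Rrp9, a protein of the U3 particle that processes small-subunit RNA, was at -0.54 (edgeR adjusted p = 0.0010), Emg1, an 18S methyltransferase, at -0.38 (0.0028), Lyar at -0.40 (0.0106), and Utp18, of the small-subunit processome, rose by 0.39 (0.0078). On unscaled TPM 12 of the 76 were called higher and 0 lower, where 31.5% of all genes were called higher and 2.03% lower. The list median there was 0.17 beside 0.19 over all genes. Without male hypoxia libraries 2 and 3 the list median on TMM-scaled counts was -0.18 beside -0.02 over all genes.

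Of 10 tested genes of RNA polymerase I and its factors, Taf1a fell (-0.47, edgeR adjusted p = 0.015) and 0 rose. Of 23 tested genes of mTOR and Myc control 4 rose and 1 fell, where 15% and 12.9% of all genes did. Those with the smallest p were Mxd4, an antagonist within the Myc network, at 0.45 (edgeR adjusted p = 0.0018), Ddit4 at 0.82 (0.0079) and Sesn2 at 0.59 (0.0156), which both restrain mTOR complex 1, and Deptor, an inhibitor of mTOR, at -0.37 (0.0162).

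Myc itself was at 1.12 (edgeR adjusted p = 0.094), with 1.55 to 2.45 CPM in normoxic and 5.76 to 9.79 in hypoxic males. In normoxic females Myc was 2.13, 1.29 and 12.9 CPM, the last in female normoxia library 3, against 4.82 to 6.92 in hypoxic females. Without that library Myc was at 1.95 and passed (edgeR adjusted p = 0.000409), and it passed in 4 of 14 alternatives in all, DESeq2 and unscaled TPM among them. Of 11 tested genes of stalled ribosome rescue 2 fell, Hbs1l, the GTPase partner of Pelo, at -0.53 (edgeR adjusted p = 0.0016) and Map3k20, a kinase that senses stalled ribosomes, at -0.29 (0.0047). Of 7 tested snoRNA host genes Snhg3 rose by 0.65 on the log2 scale (edgeR adjusted p = 0.0050).

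Counts of the smaller lists also depended on scale. On unscaled TPM the counts were 3 higher and 0 lower for elongation, 3 and 0 for RNA polymerase I, 9 and 0 for mTOR and Myc control, 3 and 0 for rescue and 2 and 0 for the proteins outside the naming pattern. On that scale 31.5% of all genes were called higher and 2.03% lower. Without male hypoxia libraries 2 and 3, list medians on TMM-scaled counts were -0.19 for elongation, -0.08 for initiation and -0.04 for other TOP genes. They were -0.06 for mTOR and Myc control, -0.13 for rescue and 0.06 for snoRNA hosts, beside -0.02 over all genes. Fewer genes of every kind were called in that fit, so calls lost there do not set these lists apart.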

How the data were processed

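FastQC, Salmon and the build GRCm39 are named in the submitters' processing notes; tool versions, annotation release and strand setting are not given in the sources used here. The deposited table holds, per the file headers, estimated counts, TPM and average effective transcript lengths per gene and library. The TPM deposited by the authors summed to 889905 to 926060 per library over the rows used here. Of the per-sample columns, 0 belonged to no sample.

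Symbols were found for 99.3% of genes. Rounded estimated counts were filtered (filterByExpr), scaled by TMM and fitted in edgeR 4.0.16 (R 4.3.3) with group means over all 12 libraries and 8 residual degrees of freedom; contrasts were tested two-sided by glmQLFTest, adjusted over 13960 genes. Log2 CPM used a prior count of 2 and log2 TPM a pseudocount of 1 in limma 3.58.1, so that fold changes of low genes are understated there. The Rpl3l to Rpl3 ratio used an exact permutation test. Scripts were tested on simulated data. Alternatives included DESeq2 1.42.0, other scalings and filters, copies added and libraries left out.

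Members, lists and tests were chosen with earlier results of these data known. Genes named are all members that passed in a hypoxia contrast, the paralog pairs and members of set roles, the 5 highest and 5 lowest in TPM, untested members, and up to 4 passing genes per list; those described for copies, length, position or uneven counts were named after their values were seen. Some genes under this rule are not reported here, and they are not drawn in the plots of levels and fold changes.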

Additional observations from a re-analysis of the deposited data

How the results depend on the processing

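Averaged over the sexes, 1 member was higher in all alternatives except unscaled deposited TPM (chosen after seeing the data), with 16; lower were 6, but 10 with DESeq2, 10 with upper quartile factors, 4 without the filter (Rpl36 and Rps29 lost), 1 without male hypoxia libraries 2 and 3, 1 without these and female normoxia library 3, and 1 on TPM. In males 2 were lower, but 5 with DESeq2, 4 with upper quartile factors, 1 without the filter, 5 without female normoxia library 3, 1 on TPM, and 0 without male hypoxia libraries 2 and 3, with or without female normoxia library 3; higher was 1, but 0 in both of the latter and 24 on TPM. In females, 0 and 0 became 1 higher and 4 lower with DESeq2 and 1 lower with upper quartile factors. The shares of all genes called moved as well. Averaged, 12.9% were lower in the main fit, 14.9% with DESeq2, 14.2% with upper quartile factors and 6.57% without the filter. In males these shares were 7.10%, 9.94%, 7.96% and 3.49%, and on TPM 25.1% were higher and 1.08% lower. Fewer of all genes were also called without male hypoxia libraries 2 and 3. Leaving out each library in turn gave 1 higher and 3 to 8 lower averaged, 1 and 0 to 5 in males, and 0 to 1 and 0 to 2 in females. Of all genes, these fits called 8.25% to 15.4% lower averaged and 2.51% to 9.73% lower in males. The male extremes were the fits without male hypoxia library 3 and without female normoxia library 3. Averaged, 3 were lower without male normoxia library 3 or female hypoxia library 2 or 3. In males, 0 were lower without male hypoxia library 3, 1 without male hypoxia library 2 or any male normoxia library, 4 without male hypoxia library 1 and 5 without female normoxia library 3. In females, members passed in these leave-outs only without female hypoxia library 1, where 8.76% of all genes were higher and 5.76% lower. On unscaled TPM the averaged log2 fold change reversed to 0.038 for Rpl36, 0.047 for Rpl9, 0.077 for Rps29, 0.27 for Rplp0 and 0.30 for Rps4x, and that of Rps2 in males to 0.016; there the shift of all genes was 0.19 averaged. Elsewhere the cause was not tested. No label says that replicate numbers pair libraries. Of 18 same-numbered pairs 1 had a correlation over 0.1, which cannot exclude pairing. With the replicate block 1 member was higher and 7 lower, Rpsa being the added one, where 14.8% and 13.4% of all genes were. Such a block cannot move the difference of -1.41 in the ratio of Rpl3l to Rpl3. The ratio then had an exact sign-flip p = 0.03125, the smallest that 6 pairs allow. Across its other alternatives the averaged ratio stayed between -1.56 and -1.13, with exact permutation p of 0.005 to 0.0125. Adding sequence copies left 1 higher and 6 lower. Low counts limit Rps24, Rps26, Rps23 and Rps7, whose errors are among the widest.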
